A study of Mus musculus with 8 samples.

Results

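The genes described here make, break down and sense prostaglandins, the lipid messengers derived from arachidonic acid, and they were followed in the mouse melanoma line Yumm5.2 after treatment with 4-OI. They were 10 of the 55492 genes in the deposited tables, picked by symbol: Pla2g4a, Ptgs2, Ptgs1, Ptges, Ptges2, Ptges3, Hpgd, Ptgr1, Ptger2 and Ptger4. The set was drawn up with the 4-OI against DMSO values of these same libraries known, so its members' levels and differences are given as a description, with no test. RNA was sequenced in 4 libraries of cells given 4-OI and 4 libraries of cells given the solvent DMSO, all after 20 h of culture. The labels call 4-OI a permeable itaconate, which in this field is 4-octyl itaconate, an ester of a metabolite of activated macrophages, and no source used here states its dose. Both groups were the same line, with the strain written as C57B/6J, so the comparison covers 1 tumour line in culture and no host cells. The labels speak of separate experiments but name no separate cultures, so the spread behind every p-value is that among these libraries and may be technical.

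Prostaglandin synthesis begins when a phospholipase frees arachidonic acid from membranes. A cyclooxygenase turns the acid into PGH2, and terminal synthases then form PGE2 and its relatives. PGE2 leaves the cell, acts on EP receptors of the same or neighbouring cells, and is inactivated by oxidation followed by reduction of its side chain. In melanoma and other tumours COX-2, the product of Ptgs2, is known as a source of PGE2 that dampens immune responses, and Ptgs2 mRNA is also widely used as a marker of ferroptosis, the form of cell death named in the title of the series.

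Promoter windows of the member genes are shown because 3 of the genes, Ptgs2, Ptgr1 and Pla2g4a, were at least 2-fold higher in 4-OI libraries, while Ptgs1, which encodes the other cyclooxygenase, was at nearly the same level in both groups. The windows are those of RefSeq on GRCm38.p6, from 250 bases before to 50 bases after the annotated start, and all 10 genes had one. They lie at chr1:150099781-150100080 on the forward strand (Ptgs2), chr1:149961241-149961540 on the reverse strand (Pla2g4a), chr4:58987029-58987328 on the reverse strand (Ptgr1) and chr2:36230176-36230475 on the forward strand (Ptgs1), and each sequence reads 5′ to 3′ along its gene.
Ptgs2 promoter: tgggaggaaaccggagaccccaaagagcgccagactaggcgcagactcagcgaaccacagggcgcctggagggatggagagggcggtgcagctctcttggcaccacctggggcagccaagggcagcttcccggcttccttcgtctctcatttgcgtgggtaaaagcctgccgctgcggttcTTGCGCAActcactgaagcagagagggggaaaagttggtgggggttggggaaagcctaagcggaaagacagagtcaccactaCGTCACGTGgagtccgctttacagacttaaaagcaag
Pla2g4a promoter: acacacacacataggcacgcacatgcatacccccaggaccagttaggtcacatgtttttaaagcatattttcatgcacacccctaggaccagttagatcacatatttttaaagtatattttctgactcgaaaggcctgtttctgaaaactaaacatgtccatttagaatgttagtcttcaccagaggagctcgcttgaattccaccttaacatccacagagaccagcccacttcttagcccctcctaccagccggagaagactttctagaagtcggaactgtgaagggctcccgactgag
Ptgr1 promoter: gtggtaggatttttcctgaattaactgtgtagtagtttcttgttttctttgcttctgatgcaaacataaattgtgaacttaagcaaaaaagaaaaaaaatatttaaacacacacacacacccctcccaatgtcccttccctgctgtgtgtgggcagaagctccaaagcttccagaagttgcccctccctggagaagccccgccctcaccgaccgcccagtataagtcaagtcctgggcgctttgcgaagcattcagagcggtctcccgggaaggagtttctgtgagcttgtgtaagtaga
Ptgs1 promoter: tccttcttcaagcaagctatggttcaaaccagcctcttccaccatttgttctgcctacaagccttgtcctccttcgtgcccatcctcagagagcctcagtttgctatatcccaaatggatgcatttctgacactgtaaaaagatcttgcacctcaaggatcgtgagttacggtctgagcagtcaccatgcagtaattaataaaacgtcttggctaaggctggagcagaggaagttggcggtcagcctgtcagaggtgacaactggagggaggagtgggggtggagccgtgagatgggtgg
Capitals mark motif matches, searched on both strands after the windows had been seen. In Ptgs2 they are TTGCGCAA, a palindrome that C/EBP proteins are known to bind, at -69 to -62 from the start, and the run CGTCACGTG. That run holds the E-box CACGTG at 17 to 22 and, on the reverse strand, the cAMP response element core TGACG at 14 to 18, and these matches overlap. TTGCGCAA stood in 50 of 27025 promoter windows of the same length (0.185%), CACGTG in 7.24% and TGACG in 21.02%. The windows of Pla2g4a, Ptgr1 and Ptgs1 held none of the 7 motifs searched. Pla2g4a had 2 RefSeq starts, and only the window of the start nearest its annotated gene start was searched. The kappaB motif, searched as GGGA, any 2 bases and TTCC (1.43% of all windows), and the AP-1 letters TGANTCA (7.93%) were in 0 of the 10 members' windows. The antioxidant response element core TGACNNNGC (12.5% of windows) was found in that of Ptges3, on the reverse strand at 8 to 16, where it overlaps TGACG at 12 to 16. CACGTG was also present in Ptges2 at -77 to -72, and TATAAA (14.2% of windows) in Hpgd at 5 to 10. These matches describe letters in the windows and were not tested as binding sites. Sites outside the windows, or spelled with other letters, were not searched, so a motif not found here may still lie elsewhere.

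The 3′ untranslated region of Ptgs2 is known for AUUUA elements, which shorten the life of its mRNA. In the GENCODE annotation of GRCm38 the region held 14 ATTTA in 2445 bases. Of 11361 tested genes with such a region, 282 had more, and the median was 2. Per kb it held 5.73, and 485 genes had more. The stretch shown here, positions 12 to 41 of the region (chr1:150105794-150105823), carries 4 of them in capitals, 3 of which overlap.
Ptgs2 AU-rich stretch: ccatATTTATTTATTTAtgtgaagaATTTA
Pla2g4a had 4 ATTTA in only 443 bases, or 9.03 per kb against a median of 1.42 per kb. Per kb 89 genes had more, while by number 2801 did. Ptger2 had 6, Ptger4 had 5, Ptges3, Ptges2 and Hpgd had 4 each and Ptgr1 had 1, while Ptgs1 and Ptges had 0.

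Total counts were 25664999 to 31185027 in 4-OI libraries and 22962963 to 31361677 in DMSO libraries. Markers of melanocytes were close to absent: of 10, only Mitf passed the filter on low counts, at 9.99 CPM in 4-OI and 6.42 CPM in DMSO, and the other 9 were under 1 CPM. Pmel, Mlana, Dct, Tyr and Sox10 were among those 9, so transcripts of pigment synthesis were scarce for a line named melanoma. The leukocyte markers Adgre1, Lyz2, Tyrobp and Ncr1 were at 0 in every library, and the summed level of the leukocyte list was 1.51 to 2.304 CPM in 4-OI and 1.98 to 2.48 CPM in DMSO. Of that list only Cd68 passed the filter, at 1.67 ± 0.30 CPM in 4-OI and 1.88 ± 0.13 CPM in DMSO, and it was not called. The sum of 8 fibroblast markers was 2153 to 2238 CPM in 4-OI libraries and 3052 to 3257 CPM in DMSO libraries. Of those markers Lum was at 0 and 6 could be tested. Col1a2 made up most of the sum, at 1692 ± 31.8 CPM in 4-OI and 2457 ± 67.0 CPM in DMSO, and 5 were called lower. The sixth, Pdgfra, was called higher at 114 ± 3.07 CPM in 4-OI and 107 ± 3.56 CPM in DMSO (edgeR adjusted p = 0.0137, and 0.00317 to 0.3996 over the alternatives, with 0.0580 without 4-OI replicate 3 and 0.0516 without DMSO replicate 1). The part of this shift in the results that follow was not tested. In RNA from whole cultures, fewer cells of a kind and less RNA per cell cannot be told apart.

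Fatty acid release was represented by Pla2g4a, the cytosolic phospholipase A2 that cuts arachidonic acid from phospholipids (chr1:149829618-149961290, reverse strand). Its level was 144.87, 141.74, 143.49 and 146.80 TPM in the 4-OI libraries, against 62.34, 64.39, 66.56 and 62.44 TPM in the DMSO libraries. TPM corrects for transcript length and is used where levels of different members are compared. All 4 4-OI libraries lay above all 4 DMSO libraries, with a spread of only a few percent inside each group. In the edgeR fit it was higher by 1.16 ± 0.03 on the log2 scale (here and in what follows, the fitted log2 fold change ± its standard error), rank 94 from the top of 13531 genes.

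Ptgs2, which encodes the inducible cyclooxygenase COX-2 (chr1:150100031-150108227, forward strand), was the member with the largest fitted difference. It had 350.14, 326.23, 346.48 and 370.51 TPM in 4-OI libraries, against 134.88, 140.25, 136.60 and 131.08 TPM in DMSO libraries. The groups did not overlap, and the lowest 4-OI library was more than 2-fold above the highest DMSO library. Behind these levels stood 27324 to 35110 counts per 4-OI library and 9507 to 12585 counts per DMSO library. The log2 fold change was 1.35 ± 0.03, rank 66 from the top. In level, Ptgs2 ranked 416th of the 13531 genes in 4-OI and 1127th in DMSO, and of the 416 genes at or above its 4-OI level 7, itself included, had a log2 fold change as high. Its transcript was thus already plentiful in cells given the solvent, at 413.3 ± 11.05 CPM (SD, n = 4).

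Ptgs1, which encodes the constitutive cyclooxygenase COX-1 (chr2:36230426-36252272, forward strand), had 152.21, 152.85, 153.80 and 145.02 TPM with 4-OI, against 147.76, 150.87, 153.45 and 139.16 TPM with DMSO. The libraries of the groups were interleaved, and the fitted log2 fold change was 0.01 ± 0.03. In TPM the order of the cyclooxygenases therefore differed between the groups. The ratio of Ptgs2 to Ptgs1 in TPM was 2.31 ± 0.18 in 4-OI libraries and 0.919 ± 0.022 in DMSO libraries (SD, n = 4 each), with a range of 2.13 to 2.55 in 4-OI and 0.890 to 0.942 in DMSO. By TPM, Ptgs2 was the more abundant transcript in every 4-OI library, and Ptgs1 was in every DMSO library. In CPM, which is not corrected for length, Ptgs2 was the higher in both groups. In DMSO, Ptgs2 had 413 ± 11.05 CPM and Ptgs1 had 207 ± 6.24 CPM. The order in DMSO thus rests on the length correction of TPM, which was not checked. The ratio of Ptgs2 to Pla2g4a was closer between the groups, at 2.41 ± 0.09 in 4-OI and 2.12 ± 0.06 in DMSO, although its ranges did not overlap (2.302 to 2.52 in 4-OI and 2.05 to 2.18 in DMSO).

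**Figure D1:**
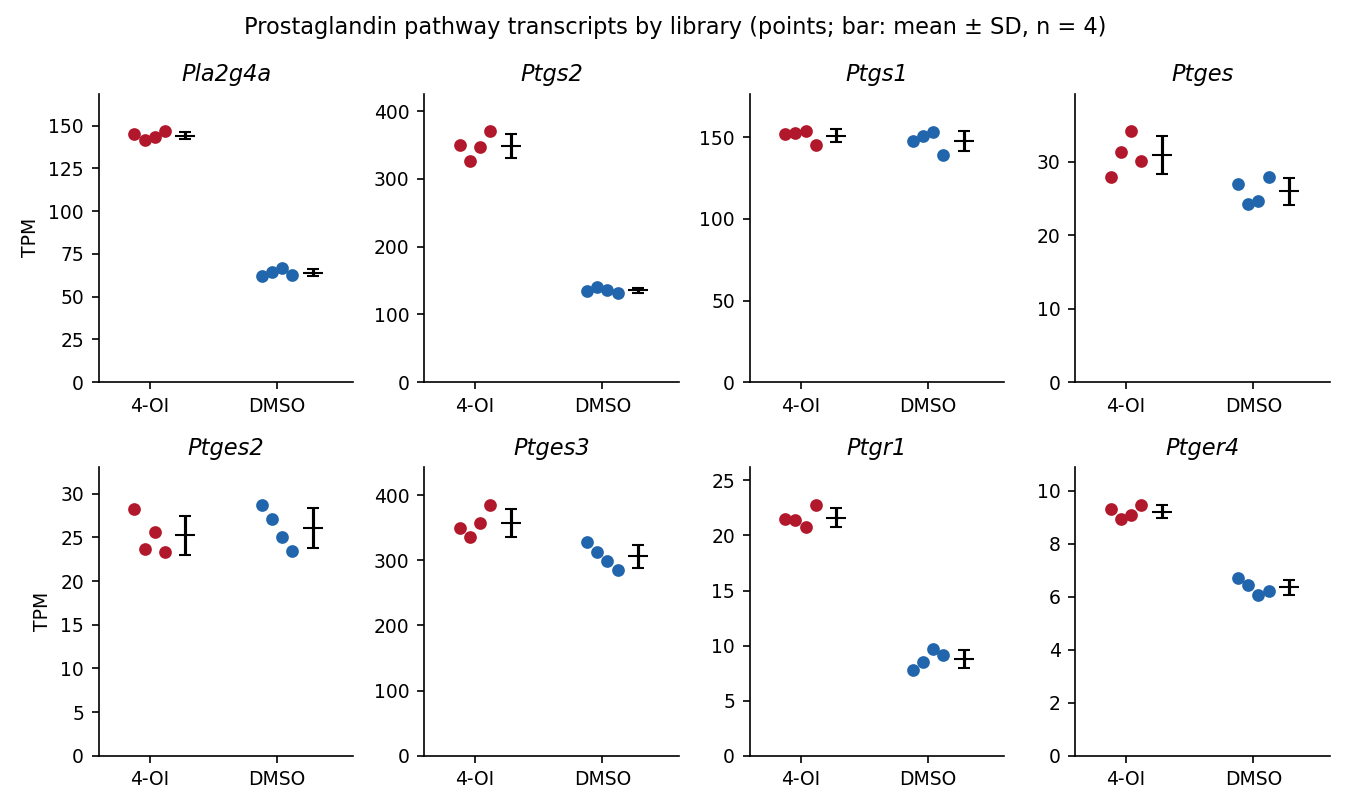
Level in TPM (vertical axes, each starting at 0) of the 8 prostaglandin genes that passed the filter, in each 4-OI library (red, left) and each DMSO library (blue, right), with the mean and SD of 4 libraries as a bar beside the points. Pla2g4a, Ptgs2, Ptgr1 and Ptger4 separate widely, with Ptgs2 at 348 TPM in 4-OI and 136 TPM in DMSO, while Ptgs1 and Ptges2 overlap.

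The terminal synthases of PGE2 had smaller fold changes than Pla2g4a and Ptgs2. Ptges, the inducible membrane synthase that is known to work with COX-2 (chr2:30889471-30929863, reverse strand), had 28, 31.36, 34.19 and 30.11 TPM in 4-OI libraries, against 27.00, 24.24, 24.72 and 28.01 TPM in DMSO libraries. The lowest 4-OI library was level with the highest DMSO library in TPM, while in CPM all 4-OI libraries (37.5 to 41.1) lay above all DMSO libraries (30.5 to 32.9). Its log2 fold change was 0.30 ± 0.04. Ptges2, another membrane-associated PGE synthase (chr2:32395896-32405772, forward strand), had 28.21, 23.71, 25.64 and 23.35 TPM in 4-OI, against 28.76, 27.11, 25.03 and 23.50 TPM in DMSO. The groups covered nearly the same range and the log2 fold change was 0.00 ± 0.05. Ptges3, a cytosolic synthase better known as the p23 co-chaperone of HSP90 (chr10:128058954-128077272, forward strand), had 349.22, 335.28, 357.59 and 385.54 TPM in 4-OI, against 327.63, 312.40, 299.12 and 285.85 TPM in DMSO. All 4-OI libraries were higher, by a log2 fold change of 0.21 ± 0.04. A pseudogene, Ptges3-ps, can share reads with it and had 106.7 ± 11.6 TPM in 4-OI and 92.7 ± 9.05 TPM in DMSO, beside Ptges3 at 357 ± 21.2 TPM in 4-OI and 306 ± 17.9 TPM in DMSO (SD, n = 4 each). In CPM, which is not corrected for length, the pseudogene had 14.5 in 4-OI and 12.8 in DMSO, and it was not called, so the level of Ptges3 is less certain than that of the other members. Summed over the 3 synthases, the level was 413 ± 20.5 TPM in 4-OI and 358 ± 19.9 TPM in DMSO. Ptges3 made up 86.4 ± 0.98% of that sum in 4-OI and 85.5 ± 0.51% in DMSO.

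Breakdown was represented at its oxidation step by Hpgd, hydroxyprostaglandin dehydrogenase (chr8:56294585-56321043, forward strand), which was all but undetected. It had 1, 0, 0 and 0 counts in the 4-OI libraries, against 0, 0, 0 and 0 counts in the DMSO libraries. A count of 0 allows up to 3 counts per library, or 0.0957 to 0.131 CPM at these depths, for counting error only, so no difference was detectable. Ptgr1, a reductase that acts on the oxidised keto-prostaglandins and on other reactive lipids (chr4:58965439-58987119, reverse strand), was well detected. It had 21.47, 21.42, 20.77 and 22.80 TPM in 4-OI, against 7.82, 8.47, 9.65 and 9.15 TPM in DMSO. The groups were far apart, with a log2 fold change of 1.29 ± 0.06, rank 76 from the top. The transcript for the later step was thus higher in 4-OI while that for the step before it was at the limit of detection in both groups.

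Of the receptors that couple PGE2 to cAMP, Ptger4, which encodes EP4 (chr15:5206661-5244187, reverse strand), was the one detected above the filter. It had 9.32, 8.94, 9.08 and 9.47 TPM in 4-OI libraries, against 6.69, 6.42, 6.06 and 6.21 TPM in DMSO libraries. All 4-OI libraries were above all DMSO libraries, and the log2 fold change was 0.53 ± 0.05. Ptger2, which encodes EP2 (chr14:44988195-45003820, forward strand), had 3, 3, 3 and 2 counts in 4-OI, against 4, 3, 4 and 1 counts in DMSO. These are at or near the floor of 3 counts in every library, so no fold change is given.

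In all, 8 of the 10 members passed the filter and were tested in the fit over 13531 genes, and each of the 8 had at least 297 counts in every library. Of the 8, 6 were called higher in 4-OI and 0 lower at an adjusted p under 0.05, beside a background of 19.3% of all tested genes called higher and 19.6% called lower by edgeR's quasi-likelihood test. In CPM, 6 of the 8 had every 4-OI library above every DMSO library and 0 had every one below, beside 17.4% and 18% of all genes. The median log2 fold change of the 8 was 0.42, and that of all genes was 0.000462. These values chose the set, and nothing is read from the counts. At 2-fold or more stood 3 members, among 134 such genes called higher in the table. The order of levels in 4-OI was Ptges3 (357 TPM), Ptgs2 (348), Ptgs1 (151), Pla2g4a (144), Ptges (30.9), Ptges2 (25.2), Ptgr1 (21.6) and Ptger4 (9.20 TPM). In DMSO it was Ptges3 (306 TPM), Ptgs1 (148), Ptgs2 (136), Pla2g4a (63.9), Ptges2 (26.1), Ptges (25.99), Ptgr1 (8.77) and Ptger4 (6.35 TPM). Within 4-OI the ranges of Ptges3 and Ptgs2, of Ptgs1 and Pla2g4a, and of Ptges and Ptges2 overlapped. Within DMSO those of Ptgs1 and Ptgs2 and of Ptges2 and Ptges did.

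**Figure D2:**
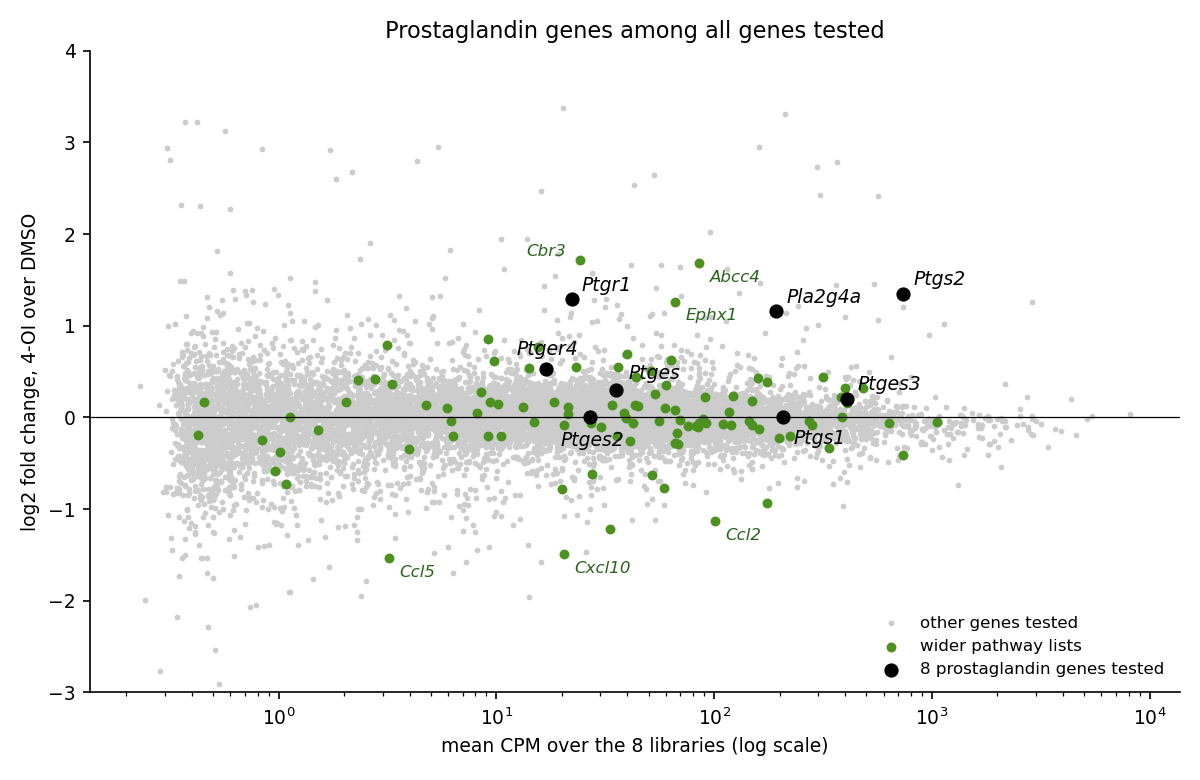
Log2 fold change of 4-OI over DMSO (vertical axis) against mean CPM over the 8 libraries (horizontal axis, log scale) for all 13531 genes tested, with the prostaglandin genes in black and the wider pathway lists in green; 8 genes lie outside the plotted range. Ptgs2, at a log2 fold change of 1.35, stands among the most abundant genes, while Ptgs1 and Ptges2 lie at the zero line.

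The genes whose levels followed Ptgs2 most closely were found by Pearson correlation of log2 CPM over the 8 libraries, among 4458 genes at a mean of 50 CPM or more. They were Dnajb4, a heat shock co-chaperone, Kitl, the ligand of the receptor Kit, Prdx1, a peroxiredoxin, Acadl, a dehydrogenase of fatty acid oxidation, and Esd, an esterase. Their r was 0.999 for Dnajb4 and Kitl and 0.998 for Prdx1, Acadl and Esd, and Pla2g4a came at rank 7 with 0.998. Ptges3 had r = 0.842 at rank 739, and Ptgs1 had r = 0.143 at rank 1791. The 8 libraries form 2 groups, so a high r here mainly restates that a gene differs between the groups in the same direction with little spread inside them.

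Ptgs2 and Pla2g4a are neighbours on chromosome 1 and are transcribed away from each other. Their start sites lie 138741 bp apart, with 0 protein-coding genes between them. A window of 1 Mb on each side of the Ptgs2 start, chosen after the values were seen, held 31 annotated genes, of which 6 could be tested. Ptgs2os, a noncoding transcript on the reverse strand that starts 68 bp from Ptgs2, had 222, 238, 280 and 255 counts in 4-OI libraries, against 105, 115, 124 and 150 counts in DMSO libraries. All 4-OI libraries were higher, at 8.63 ± 0.49 CPM in 4-OI and 4.76 ± 0.59 CPM in DMSO (SD, n = 4 each), a fitted difference of 0.86 ± 0.09 on the log2 scale (edgeR adjusted p = 1.29e-07). It does not overlap Ptgs2 in the annotation, and no source used here gives the strand setting of the counting. Farther out, Odr4 was higher by a log2 value of 0.18 (edgeR adjusted p = 5.96e-04, and 4.49e-05 to 0.257 over the alternatives, the highest with limma on TPM). Tpr, a nuclear pore gene, differed by 0.02 (edgeR adjusted p = 0.581) and Rbm3-ps, a pseudogene, 0.30 (edgeR adjusted p = 0.208), and neither was called. The protein-coding genes Pdc, Prg4 and Hmcn1 of this window were below the filter in both groups.

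**Figure D3:**
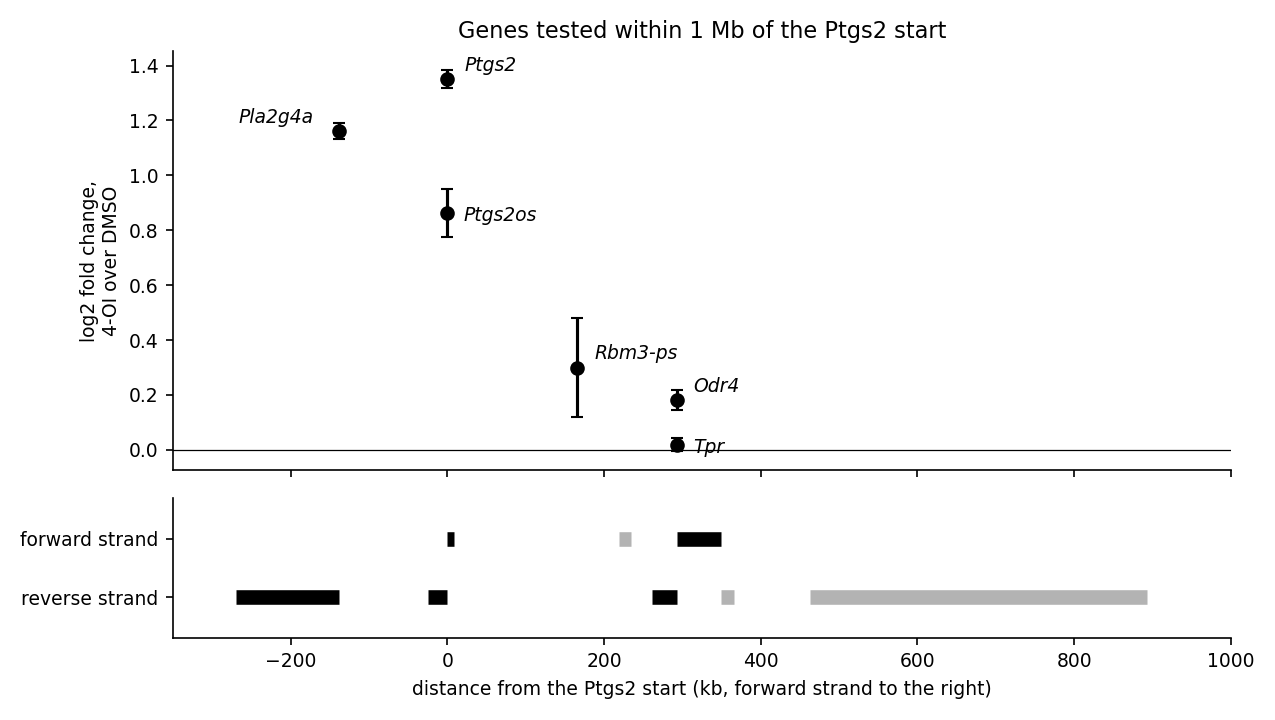
Upper panel: log2 fold change of 4-OI over DMSO (points) with its standard error (bars) for the 6 genes tested within 1 Mb of the Ptgs2 start, against the distance of each gene's start from it in kb. Lower panel: extent and strand of the tested genes (black) and of the protein-coding genes below the filter (grey), with Pla2g4a and Ptgs2 at 1.16 and 1.35 and Tpr at 0.02.

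The wider pathway was read from 8 lists of other genes, also chosen with earlier results of these data known. Their shares of calls are therefore a description. The lists held 148 genes in all, of which 102 could be tested. Of these 33 were higher in 4-OI, 28 were lower and 41 were not called (32.4% higher and 27.5% lower, beside 19.3% and 19.6% of all genes tested), and their median log2 fold change was -0.02, close to that of all genes. In fatty acid release and reacylation, 10 of 19 tested genes were higher and 0 lower, beside the same 19.3% and 19.6% (median log2 fold change 0.14). The lipase Pnpla2 had 43.3 ± 2.01 CPM in 4-OI and 29.5 ± 0.88 CPM in DMSO (log2 fold change 0.56, edgeR adjusted p = 2.38e-09), and the calcium-independent phospholipase Pla2g6 had 50.4 ± 0.47 CPM in 4-OI and 37.0 ± 0.96 CPM in DMSO (0.45, edgeR adjusted p = 2.26e-09). The fold changes of Pla2g7 and Pnpla8, other phospholipases, were 0.44 and 0.35 on the log2 scale, and both were called. Plaat3, at 0.37 (edgeR adjusted p = 0.0469, and 0.0108 to 0.376 over the alternatives), was no longer called without any single one of 4-OI replicates 2, 3 and 4 or DMSO replicates 1, 2 and 3 (0.0765 to 0.172). Of the secreted phospholipases, Pla2g5 and Pla2g10 were below the filter and Pla2g12a, at 68.6 ± 2.22 CPM in 4-OI and 70.1 ± 2.55 CPM in DMSO, was not called.

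Among the other prostanoid synthases and reductases, all 4 tested genes of 9 were higher (median log2 fold change 0.58). Over all genes tested, 19.3% were higher and 19.6% lower. Cbr3, a carbonyl reductase, had 37.3 ± 1.08 CPM in 4-OI and 11.3 ± 0.44 CPM in DMSO (log2 fold change 1.72, edgeR adjusted p = 2.68e-16). Its relative Cbr1, which can convert PGE2 to PGF2α, had 19.6 ± 0.70 CPM in 4-OI and 11.5 ± 0.45 CPM in DMSO (0.77, edgeR adjusted p = 3.57e-10). Akr1c18 and Akr1b3, aldo-keto reductases with PGF synthase activity, had log2 fold changes of 0.38 and 0.18 and were both called. Hpgds, Ptgds, Ptgis and Tbxas1, the synthases of PGD2, prostacyclin and thromboxane, had at most 4 counts in any library.

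Of the transport and further breakdown genes, 3 of 8 were higher, 2 lower and 3 not called, beside 19.3% higher and 19.6% lower among all genes. Abcc4, an efflux pump that carries PGE2 out of cells, had 129.9 ± 6.13 CPM in 4-OI and 40.5 ± 1.23 CPM in DMSO, or 1.68 higher on the log2 scale (edgeR adjusted p = 3.28e-18). Slco2a1, the prostaglandin importer, was scarce, at 3.48 ± 0.19 CPM in 4-OI and 4.43 ± 0.40 CPM in DMSO, a difference of -0.35 on the log2 scale (edgeR adjusted p = 0.0103), which was -0.22 with limma on log2(TPM + 1) and -0.18 on log2(FPKM + 1), still called. Slco3a1, a related transporter, had -0.20 (edgeR adjusted p = 0.0195, and 0.0126 to 0.238 over the alternatives) and lost its call without 4-OI replicate 1 or 4 or DMSO replicate 1 or 4 (0.0579 to 0.0746). The keto-prostaglandin reductases Zadh2 and Ptgr2, which act at the same step as Ptgr1, had small changes. That of Zadh2 was 0.22 (edgeR adjusted p = 1.05e-04), and that of Ptgr2 was 0.14 (edgeR adjusted p = 0.0132, and 0.00537 to 0.181 over the alternatives, with 0.0519 without DMSO replicate 1).

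Of the other prostanoid receptors, 2 of 4 tested genes were higher and 0 lower, beside 19.3% and 19.6% of all genes. Ptgfr, the receptor of PGF2α, had 49.2 ± 2.49 CPM in 4-OI and 30.6 ± 1.49 CPM in DMSO (log2 fold change 0.69, edgeR adjusted p = 1.63e-10). Ppard, a nuclear receptor for fatty acid derivatives, had 59.9 ± 2.11 CPM in 4-OI and 42.3 ± 0.69 CPM in DMSO (0.50, edgeR adjusted p = 3.93e-10). Ptger1 and Ptgir stood at 1.45 and 0.479 CPM in 4-OI and at 1.59 and 0.426 CPM in DMSO and were not called. Ptger3 was below the filter. Of 21 genes of the lipoxygenase, leukotriene and epoxide branch only 4 could be tested, and Alox5, Alox12 and Alox15, which encode lipoxygenases, could not. Ephx1, microsomal epoxide hydrolase, had 93.6 ± 2.82 CPM in 4-OI and 39.1 ± 1.39 CPM in DMSO (log2 fold change 1.26, edgeR adjusted p = 1.40e-16), and Cyp2j6, of the epoxygenase family, was higher by a log2 value of 0.27 (edgeR adjusted p = 0.00433). Ephx2 was not called, and Lta4h had -0.10 (edgeR adjusted p = 0.0193, and 0.00695 to 0.113 over the alternatives), a call that was lost without 4-OI replicate 3 or DMSO replicate 2 or 4 (0.0582 to 0.0902).

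Of 24 genes known to control Ptgs2 transcription or the decay of its mRNA, all tested, 3 were higher, 11 lower and 10 not called (median log2 fold change -0.07). All genes had 19.3% higher and 19.6% lower. The 3 higher were Fosl1, an AP-1 subunit (0.43), Cebpb, a C/EBP factor (0.32), and Zfp36l2, which binds AU-rich elements (0.32). Cebpb had 443 ± 13.0 CPM in 4-OI and 354 ± 9.02 CPM in DMSO (edgeR adjusted p = 6.53e-09). Relatives of each were lower: Jun, another AP-1 subunit (-0.22, edgeR adjusted p = 8.51e-08), Cebpd, another C/EBP factor (-0.28, edgeR adjusted p = 4.99e-07), and Zfp36l1, of the same family as Zfp36l2 (-0.28, edgeR adjusted p = 1.16e-06). The NF-kB subunits Nfkb1 and Rela had log2 fold changes of -0.20 and -0.17 and were called lower, but Rela not with limma on TPM or FPKM (adjusted p = 0.0974 to 0.104, and 3.74e-05 to 0.104 over the alternatives). Also lower were Celf2, an RNA-binding protein, at 21.7 ± 1.90 CPM in 4-OI and 33.2 ± 1.51 CPM in DMSO (-0.62, edgeR adjusted p = 2.41e-08), and Hnrnpd, which encodes the AU-rich element binding protein AUF1 (-0.33, edgeR adjusted p = 2.04e-08).

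Of 28 genes of cAMP signalling, the pathway of EP2 and EP4, 9 were higher, 4 lower and 15 not called. That is 32.1% higher and 14.3% lower, beside 19.3% and 19.6% of all genes tested, with a median log2 fold change of 0.05. Areg, a growth factor gene induced by cAMP, had 11.8 ± 0.56 CPM in 4-OI and 6.49 ± 0.30 CPM in DMSO (log2 fold change 0.86, edgeR adjusted p = 2.04e-09). The nuclear receptor genes Nr4a3 and Nr4a1 had log2 fold changes of 0.79 and 0.62 (that of Nr4a3, a scarce transcript, was 0.43 with limma on log2(TPM + 1) and 0.37 on log2(FPKM + 1), still called), and Crem, a cAMP-responsive modulator, had 0.62. These 4 are immediate targets of many signals besides cAMP. Adcy7, an adenylyl cyclase, was lower, at 40.6 ± 2.92 CPM in 4-OI and 62.7 ± 2.61 CPM in DMSO (-0.63, edgeR adjusted p = 6.67e-10). The other lower genes were Sik1, a kinase, Pde3b, a phosphodiesterase, and Dusp1, a phosphatase, with small log2 fold changes of -0.25, -0.13 and -0.09. The call of Dusp1 (edgeR adjusted p = 0.0430, and 0.0182 to 0.251 over the alternatives) was lost without 4-OI replicate 1, 2 or 4 or DMSO replicate 2 or 3 (0.0548 to 0.151), and that of Pde3b with limma on FPKM (adjusted p = 0.0523, the highest of 5.95e-05 to 0.0523 over the alternatives). Prkaca, Prkacb and Prkar1a, subunits of protein kinase A, and Gnas, the stimulatory G protein, were not called.

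Inflammatory genes that are often induced together with Ptgs2 had the opposite direction: of 11 tested, 0 were higher, 10 lower and 1 not called. Their median log2 fold change was -0.78, and among all genes tested 19.3% were higher and 19.6% lower. Ccl2, a monocyte chemokine, had 63.0 ± 2.75 CPM in 4-OI and 138 ± 2.21 CPM in DMSO (-1.14, edgeR adjusted p = 1.30e-16). Cxcl10, an interferon-induced chemokine, had 10.8 ± 0.17 CPM in 4-OI and 30.3 ± 1.54 CPM in DMSO (-1.49, edgeR adjusted p = 7.88e-15). Ccl5, Ccl7 and Vcam1 had log2 fold changes of -1.54, -1.21 and -0.94, and the gene not called was Cxcl1. Vcam1, Ccl2 and Ccl7 are also made by fibroblasts. The tested fibroblast markers, Pdgfra apart, were called lower in 4-OI as given above. The labels give 1 tumour line, so these markers need not come from separate cells, and the part of that shift was not tested. Il6, Il1b, Tnf and Nos2 were below the filter, so they could not be set beside Ptgs2.

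**Figure D4:**
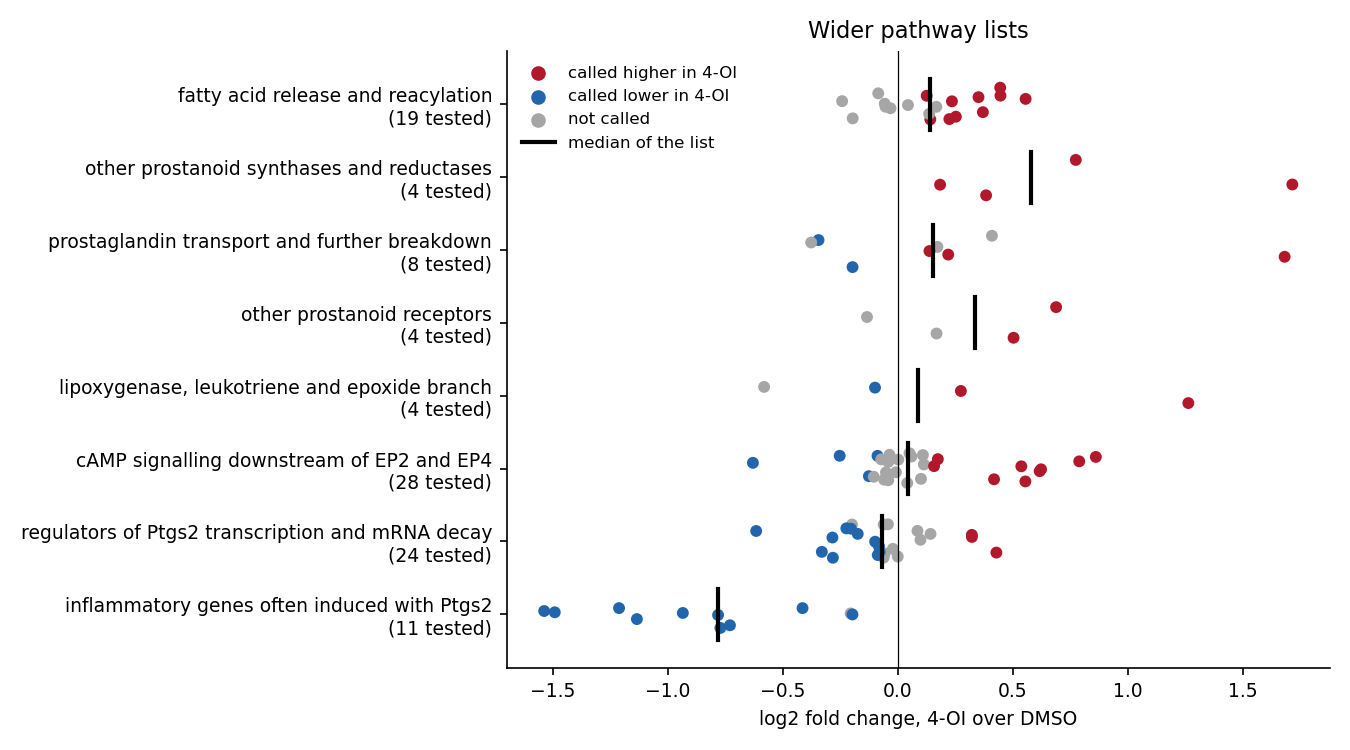
Log2 fold change of 4-OI over DMSO (horizontal axis) of each tested gene of the 8 wider lists (rows), coloured by edgeR call, with the median of each list as a vertical bar. The synthases and reductases lie to the right (median 0.58), the inflammatory genes to the left (median -0.78) and the regulators of Ptgs2 around zero (median -0.07).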

How the data were processed

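RNA from 8 libraries of Yumm5.2 cells was measured. Per the submitters' processing notes, the tools, with no role or order given, were STAR 2.7.8a, RSEM 1.3.3, cutadapt 2.3, MultiQC 1.7 and FastQC 0.11.8, and the build was GRCm38. The authors deposited expected counts (whole numbers in every cell), TPM and FPKM for 55492 genes. No source used here gives the annotation release or strand setting, so antisense, overlapping and near-identical genes are less certain.

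Expected counts were analysed with edgeR 4.0.16 in R 4.3.3 (filterByExpr, minimum count 10; TMM; two-sided quasi-likelihood test without covariates), with Benjamini-Hochberg adjustment over all 13531 genes tested, for lists too, and calls at 0.05. CPM is a count over library total times TMM factor. Columns were matched to libraries by description. The common biological coefficient of variation was 3.1%, and library pairs within a group differed by 1.89 to 4.80 times sampling noise. Members and lists were chosen with earlier results of these data known. Named genes were all members, up to 5 called genes per list by size of change at 1 CPM or more, further genes to spell out counts, and the 5 genes most like Ptgs2. Others named as examples (subunits, genes not called or below the filter, and those near Ptgs2) were chosen after their values were seen. Alternatives were other scalings and filters, DESeq2 1.42.0, limma 3.58.1 on log2(TPM or FPKM + 1) and log2(TPM + 0.1), a replicate block, and leaving out each library. The procedure was tested on simulated counts. Positions and untranslated regions came from GENCODE M21 and promoters from RefSeq GRCm38.p6. Not every marker gene is reported here.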

Additional observations from a re-analysis of the deposited data

Results flagged for a closer look

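A library that stood apart from the other 3 of its group, by Dixon's criterion at 95%, was looked for in 112 groups, and 6 had one, where chance gives about 1 in 20. Among the members it was Hpgd, at 0.03864 CPM in 4-OI replicate 1 and 0 in the other 4-OI libraries, which is a single count. In the lists, Cxcl10 had 11.03 CPM in 4-OI replicate 4, beside 10.65 to 10.71 in the other 4-OI libraries. Nr4a3 had 4.219 CPM in 4-OI replicate 2, beside 3.86 to 3.89 in the others. Lta4h had 83.07 CPM in DMSO replicate 3, beside 88.3 to 89.1 in the other DMSO libraries. Rela had 59.02 CPM in 4-OI replicate 4, beside 64.4 to 65.3 in the other 4-OI libraries. Nfkb1 had 234.4 CPM in DMSO replicate 2, beside 238 to 239 in the other DMSO libraries.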

How the results depend on the processing

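In 18 alternatives, the 8 tested members kept their calls and the 6 called higher kept their sign. The set was chosen with these values known, so this describes the processing and is no support for the members. Fitted log2 fold changes ranged over 1.32 to 1.38 for Ptgs2, 1.13 to 1.18 for Pla2g4a and 1.19 to 1.34 for Ptgr1, and lay on both sides of 0 for Ptgs1 and Ptges2. Ptges was 0.24 to 0.25 with limma on TPM or FPKM, against 0.30 with edgeR, and Ptger4 was 0.47 with limma on log2(TPM + 1), 0.46 on log2(FPKM + 1) and 0.53 on log2(TPM + 0.1), against 0.53 with edgeR. Over all genes, 2646 were lower with edgeR, and 1620, 1615 and 1535 with limma on log2(TPM + 1), log2(TPM + 0.1) and log2(FPKM + 1). Pathway genes called lower numbered 28 with edgeR and 18 with limma on FPKM. The cause was not tested. Leaving out single libraries gave 2249 to 2522 higher and 2369 to 2666 lower over all genes, and 31 to 34 higher and 24 to 30 lower in the lists. Scaling by library totals gave 3020 higher and 2323 lower. Same-numbered libraries did not deviate together (correlations 0.0689, 0.0702, -0.0142 and -0.0155). Such values show no shared deviation, but they cannot tell whether libraries of the same number came from the same experiment. A replicate block gave 2526 higher and 2618 lower, with 35 and 28 pathway genes. Of the single-gene values under these alternatives, 914 held, 53 lost their call and 5 moved. Calls were lost in Dusp1, Lta4h, Plaat3, Slco3a1, Ptgr2, Odr4, Pde3b, Rela and Pdgfra, and those that moved were limma values of Ptges and Ptger4. A member's value held if it shifted by less than the SD of its log2 CPM, and another gene's if its call stayed. Of the called genes 0 reversed. Ptgs1 and Ptges2, not called, could not be counted as reversed. Depth limits Hpgd and Ptger2, whose counts are at the floor.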
